A study of Mus musculus with 2 samples.

Results

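Secretory progenitors are the early crypt cells of the secretory fate, which carry the transcription factor Atoh1 or the Notch ligands Dll1 and Dll4. Cells counted as such made up 367 of 22282 cells in single-cell libraries of the mouse jejunum. A cell was counted among them where it held at least 2 UMIs summed over Atoh1, Dll1 and Dll4, without the transcripts of a mature secretory cell. That meant Lyz1 and Defa genes of Paneth cells under 10% of UMIs and the goblet genes Muc2, Fcgbp, Tff3, Agr2 and Spink4 under 2%. It also meant fewer than 3 of the tuft genes Dclk1, Trpm5, Alox5ap, Sh2d6 and Rgs13, and fewer than 2 of the enteroendocrine genes Chga, Chgb and Neurod1. The rule sets no limit on stem cell genes. Of the 367 cells 65 came from mice given an antagonist of the Wnt receptors FZD5 and FZD8 and 302 from mice given an Fc control.

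In the crypt, neighbouring cells sort into secretory and absorptive fates by lateral inhibition. A cell with Atoh1 displays Dll1 and Dll4, which activate Notch receptors on its neighbours. Active Notch raises Hes1, a repressor of Atoh1, and holds those neighbours in the stem or absorptive state. Downstream of Atoh1, Spdef, Gfi1, Creb3l1 and Foxa3 belong to the goblet and Paneth branches and Neurog3 to the enteroendocrine branch.

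All mice had an Lgr5-eGFP-IRES-CreER knock-in, in which the stem cell gene Lgr5 drives GFP, were labelled female and were 10 to 12 weeks old. GFP+ jejunal cells were sorted from 3 mice per condition, so every group shares the allele and the sort, and early daughters of stem cells that still hold GFP pass it. Each condition is 1 droplet library with no label that ties a cell to a mouse. There was therefore no replicate check and no test, and the comparisons are between these libraries. The sources used here state neither how much antagonist was given nor for how long. Intervals are 95% intervals that cover counting error only. A level is a gene's share of all UMIs summed over a set of cells, per 1000000 UMIs (CPM). Genes were counted as higher or lower at 1.5-fold or more, among those with at least 50 UMIs over both sets. The 4 Y-linked genes measured were all more than 1.5-fold lower in the antagonist cells (median log2 ratio -4.79), although both libraries are labelled female, so sex-linked differences and treatment cannot be told apart. Xist, which the naming rule also picks, is left out of the results for that reason.

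The antagonist cells that met the rule differed from the control cells in depth before any gene was compared. Their median was 24303 UMIs, against 2732 over the kept cells of the antagonist library. In the control library the median was 6453.5 UMIs, against 4478 over its kept cells. In the antagonist library 35 of the 65 lay above the 95th percentile of kept cells (12897 UMIs), and 32 of those 35 held a UMI of at least 1 of the 5 tuft genes and 12 a UMI of an enteroendocrine gate gene. In the control library 39 of 302 lay above that percentile (14885 UMIs), and 2 of the 39 held a tuft gene. Between the deep antagonist cells and the other deep cells of their library that passed the gates, 3.8% of 8641 tested genes were at least 1.5-fold higher and 3.88% at least 1.5-fold lower. Of the enterocyte genes 19 of 39 were among the lower ones (median log2 ratio -0.50), and of the goblet genes outside the gate 5 of 21 were at least 1.5-fold higher and 0 lower (median 0.44). Doublets had not been removed here, and whether the deep barcodes held more than 1 cell was not tested. Of the 65 antagonist barcodes 5 also occurred in the control library, and of the 302 control barcodes 0 occurred in the antagonist library. Without shared barcodes the shares of the libraries that met the rule were 0.551% in the antagonist and 2.70% in the control library, close to those below. The main results are therefore also given for cells at or below the 95th percentile of their library, called the depth limit, a split chosen with earlier results known. It leaves 30 antagonist cells with a median of 5595.5 UMIs and 263 control cells with a median of 5584 UMIs.

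**Figure D1:**
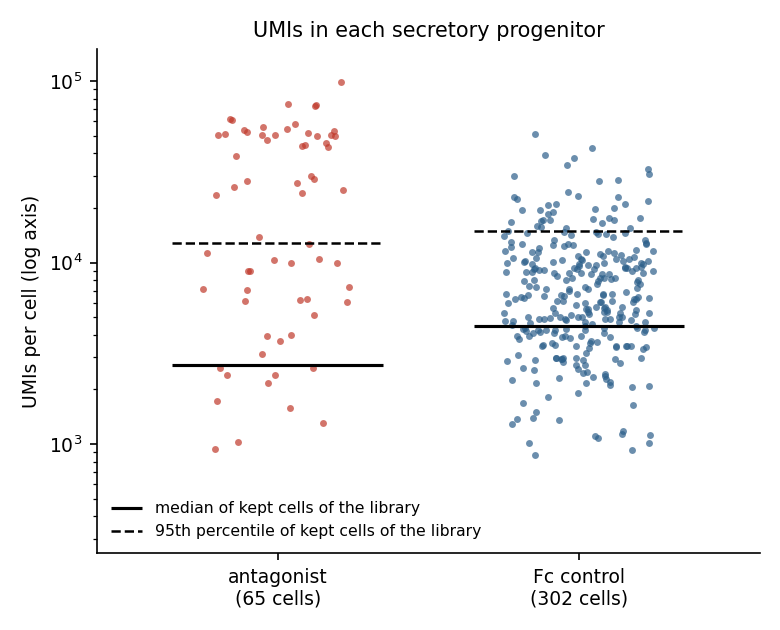
UMIs in each secretory progenitor on a log axis, antagonist library left and Fc control library right, with 1 point per cell. The solid line is the median and the dashed line the 95th percentile of all kept cells of that library; 35 of 65 antagonist cells and 39 of 302 control cells lie above the dashed line.

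Secretory progenitors formed a smaller share of the antagonist library. They were 65 of 11019 kept antagonist cells, 0.590% (0.456 to 0.751), and 302 of 11263 kept control cells, 2.68% (2.39 to 3.00). Before the exclusion gates, 230 of the 11019 antagonist cells and 550 of the 11263 control cells held 2 or more UMIs of the 3 genes. Of these, 165 antagonist and 248 control cells failed a gate. The goblet gate was failed by 111 antagonist and 222 control cells, and the tuft gate by 45 and 16. The difference in share therefore holds both the 3 genes and the gates. All shares are of cells sorted as GFP+, not of the whole crypt. Lgr5, which drives GFP, was itself lower in the antagonist cells, and what the sort did to the shares was not tested. Within the depth limit the shares were 0.287% of antagonist cells and 2.46% of control cells. When each cell was thinned to 3000 UMIs, which left out 5983 antagonist cells and 3727 control cells that were shallower, 7 of 5036 antagonist cells (0.139%, 0.0559 to 0.286) and 109 of 7536 control cells (1.45%, 1.19 to 1.74) still met the rule. The control share was the higher one at every depth up to 20000 UMIs. Among gate-passing cells under 3000 UMIs, 0.187% of antagonist cells (0.0898 to 0.344) and 1.42% of control cells (1.06 to 1.87) met the rule. From 3000 to 6000 UMIs the shares were 0.180% of antagonist cells (0.0584 to 0.419) and 2.56% of control cells (2.06 to 3.15). From 6000 to 12000 UMIs they were 1.22% (0.668 to 2.04) in the antagonist library and 3.88% (3.18 to 4.69) in the control library. Between 12000 and 20000 UMIs they were 1.09% (0.133 to 3.89) in the antagonist library and 6.40% (4.61 to 8.61) in the control library. From 20000 UMIs upward the order turned, with 34 of 171 antagonist cells (19.9%, 14.2 to 26.7) and 20 of 165 control cells (12.1%, 7.56 to 18.1), and these intervals overlap. A deeper cell reaches 2 UMIs at a lower level. Over all gate-passing cells of a bin, the 3 genes together stood between 9.54 and 24.1 CPM in the antagonist library, highest in the deepest bin. In the control library they stood between 21.3 and 56.5 CPM, lowest in the deepest bin.

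**Figure D2:**
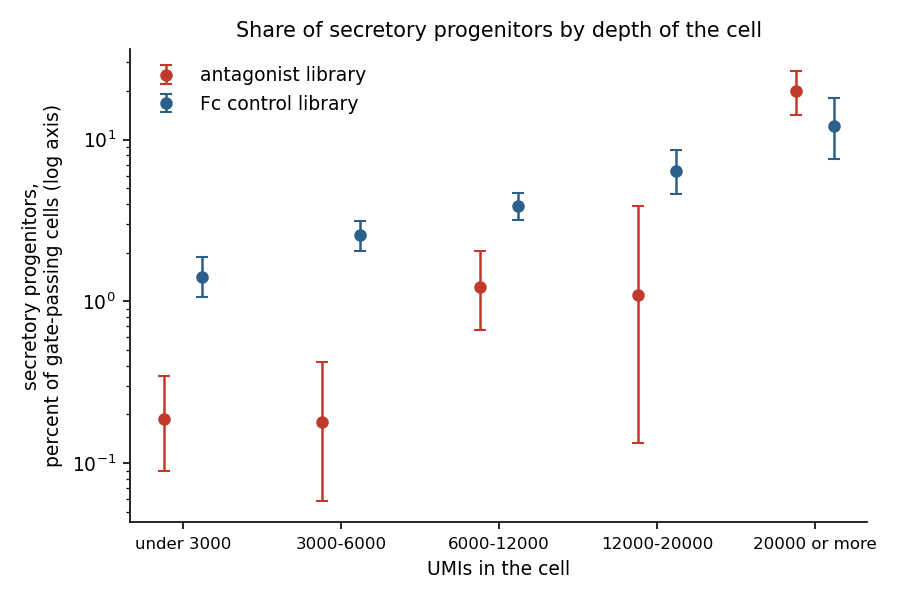
Share of gate-passing cells that met the rule for secretory progenitors, in percent on a log axis, by the UMIs in the cell, with exact binomial 95% intervals and the antagonist library left of the Fc control library in each bin. The antagonist share is below the control share in the 4 bins under 20000 UMIs and above it, with overlapping intervals, in the deepest bin.

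A threshold of 2 UMIs is low, so it was set beside enterocytes. Of the cells that met the rule, 39 of 65 antagonist cells and 150 of 302 control cells held exactly 2 UMIs of the 3 genes, and a further 399 antagonist and 816 control cells that passed the gates held 1. Enterocytes, defined by at least 1% of UMIs from Apoa1, Apoa4 and Apoc3, should lack these genes. Among them 0 of 168 antagonist cells (0 to 2.17%, median 3803 UMIs) and 1 of 106 control cells (0.943%, median 5856.5 UMIs) held 2 or more. No antagonist enterocyte exceeded 20254 UMIs, whereas 34 of the 65 antagonist cells that met the rule held 20000 or more. For those deep cells the enterocytes give no background. At least 1 UMI of Dll1 was present in 5.95% of antagonist enterocytes and 7.55% of control enterocytes, against 4.82% of all kept antagonist cells and 10.2% of all kept control cells. Thinned to 3000 UMIs, Dll1 was in 3.16% of kept antagonist cells and 3% of antagonist enterocytes (0.623 to 8.52), and in 6.87% of kept control cells and 1.09% of control enterocytes (0.0275 to 5.91). In the antagonist library a single Dll1 UMI is therefore not told apart from background. Of Atoh1, 1 of 168 antagonist enterocytes and 0 of 106 control enterocytes held a UMI. Over all kept cells Atoh1 was in 3.23% of antagonist cells (2.91 to 3.58) and 3.58% of control cells (3.24 to 3.94), with overlapping intervals. Thinned to 3000 UMIs it was in 1.83% (1.48 to 2.24) and 2.31% (1.98 to 2.67). Dll4 was in 1.09% of kept antagonist cells and 2.73% of kept control cells. Before the gates, the libraries thus differed more in the 2 ligands than in Atoh1. On the gate side, 12 antagonist and 39 control cells just inside the goblet limit had 1% or more of their UMIs from the 5 goblet genes, and 9 antagonist and 41 control cells just outside it had 2% to 3%.

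The 3 genes that chose the cells are given as a description. Dll1 (ENSMUSG00000014773, GRCm38 chromosome 17, 15367354 to 15376872, minus strand) admitted most cells, with a UMI in 54 of 65 antagonist cells (83.1%) and 275 of 302 control cells (91.1%). Atoh1 (ENSMUSG00000073043, chromosome 6, 64729125 to 64731245, plus strand) was found in 43 of 65 antagonist cells (66.2%) and 97 of 302 control cells (32.1%). Within the depth limit Atoh1 was in 36.7% of antagonist cells (19.9 to 56.1) and 30.0% of control cells (24.6 to 36.0), and it was in 91.4% of the deep antagonist cells. Dll4 (ENSMUSG00000027314, chromosome 2, 119325784 to 119335962, plus strand) was found in 11 of 65 antagonist cells (16.9%) and 98 of 302 control cells (32.5%). Dll1 alone of the 3 genes was seen in 16 antagonist and 141 control cells, and Atoh1 with Dll1 but no Dll4 in 29 antagonist and 51 control cells. Of the 98 control cells with Dll4, 83 also had Dll1, which is 84.7% of the Dll4 cells and 30.2% of the Dll1 cells. Of the 97 control cells with Atoh1, 75 also had Dll1, which is 77.3% of the Atoh1 cells and 27.3% of the Dll1 cells.

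The label was checked on markers that the rule does not use, first in the control library, where the cells were many and of ordinary depth. Spdef (ENSMUSG00000024215, chromosome 17, 27714352 to 27728955, minus strand), which drives goblet and Paneth maturation, stood at 27.4 CPM (21.4 to 34.6) in control secretory progenitors and 0.346 CPM (0.201 to 0.554) in other crypt cells, those that pass the same gates with 0 UMIs of the 3 genes. Neurog3, which commits cells to the enteroendocrine fate, stood at 37.1 CPM (30.0 to 45.3) in control progenitors and 1.14 CPM (0.860 to 1.48) in other crypt cells. Gfi1, a repressor of the enteroendocrine fate, was sparse, with 14 UMIs in 14 of 302 control progenitors and 6 UMIs in 9301 other crypt cells. Sox4, a factor of early secretory cells, reached 288 CPM (267 to 309) in control progenitors and 106 CPM (104 to 109) in other crypt cells. Hes6, a relative of Hes1 that is expressed in differentiating secretory cells, reached 110 CPM (97.7 to 124) in control progenitors and 53.6 CPM (51.5 to 55.6) in other crypt cells. Foxa3 reached 75.3 CPM and 36.7 CPM in those sets, and Creb3l1, a regulator of secretory capacity, 41.7 CPM and 4.19 CPM. Markers of immune and stromal cells were near 0. In the 65 antagonist progenitors there were 5 UMIs of 11 B and plasma cell genes, 5 of 11 T and NK cell genes, 9 of 12 myeloid genes and 4 of 13 stromal and endothelial genes. In the 302 control progenitors the same lists gave 6, 0, 22 and 2 UMIs.

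As the rule split the cells on this contrast, the profile of control progenitors against other crypt cells is a description. Of 11551 genes tested, 6.6% were at least 1.5-fold higher in the progenitors and 8.1% at least 1.5-fold lower, with a median log2 ratio of 0.02. Selenom, an endoplasmic reticulum selenoprotein, was 22.1-fold higher (20.5 to 23.8), at 584 CPM in control progenitors and 26.5 CPM in other crypt cells. Rab15, a vesicle-traffic GTPase, was 11.9-fold higher (9.66 to 14.5), at 61.0 CPM in progenitors and 5.15 CPM in other crypt cells. Rnase1, a secreted ribonuclease, was 5.97-fold higher (5.48 to 6.49). Gadd45g, a growth-arrest gene, was 5.91-fold higher (4.98 to 6.99). The goblet products Clca1 and Zg16 were 15.6-fold (9.14 to 26.6) and 4.75-fold (3.96 to 5.66) higher, but 101 of the 159 Zg16 UMIs of the control progenitors came from 1 cell.

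Goblet genes outside the gate were higher as a group, 17 of 21 tested by at least 1.5-fold (median log2 ratio 2.05), and so were 13 of 16 secretory factors (median 1.56), a list that holds Atoh1 itself. Enterocyte genes were lower, 31 of 41 by at least 1.5-fold (median -0.81). Rbp2, which carries retinol in absorptive cells, was 5.27-fold lower (4.81 to 5.78) and Apoa1, a lipoprotein component, 3.44-fold lower (3.00 to 3.96). Those levels were not spread over the cells, as 141 of the 213 Apoa1 UMIs and 259 of the 476 Rbp2 UMIs of the control progenitors came from 1 cell in each case. Of the Paneth genes, 2 of 19 were at least 1.5-fold higher (among them Mmp7, a matrix protease of Paneth cells, 7.75-fold) and 10 were at least 1.5-fold lower. The depth limit was also set on the progenitors alone, with other crypt cells of all depths. There 10.6% of 11532 genes were at least 1.5-fold higher and 10.2% lower. The Paneth list then had 2 of 19 higher and 0 lower (median -0.21). Goblet genes had 15 of 19 higher, secretory factors 14 of 16 higher and enterocyte genes 31 of 41 lower.

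Few stem cell genes differed by 1.5-fold or more between control progenitors and other crypt cells, though the median gene of the list was lower in the progenitors. Of the 35 genes of the Lgr5 stem signature 1 was at least 1.5-fold higher and 2 at least 1.5-fold lower than in other crypt cells (median log2 ratio -0.32). Lgr5 itself stood at 51.0 CPM (42.7 to 60.5) in control progenitors and 73.4 CPM (71.1 to 75.9) in other crypt cells. Olfm4, an abundant secreted stem cell marker that Notch signalling sustains, stood at 1880 CPM in control progenitors and 2652 CPM in other crypt cells. Axin2, a feedback inhibitor of Wnt signalling, was at 152 CPM in progenitors and 151 CPM in other crypt cells. Cell cycle genes were not lower, with 63 of 66 G2/M genes above equality, against 51% of all genes tested, and 3 of them higher by 1.5-fold or more (median 0.31), and the S phase list at a median of -0.01. Mki67, a protein of dividing cells, was at 279 CPM in progenitors and 193 CPM in other crypt cells.

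The Notch pathway itself, read from genes outside the rule, showed Hes1 at 89.2 CPM in control progenitors and 125 CPM in other crypt cells, 1.41-fold lower (1.23 to 1.61). Lfng, a glycosyltransferase that tunes how Notch receptors answer Delta ligands, was 3.62-fold higher (2.68 to 4.82), at 22.0 CPM in progenitors and 6.08 CPM in other crypt cells. Notch1 was at 41.7 CPM in progenitors and 41.0 CPM in other crypt cells, whereas Notch2 was 1.87-fold lower (1.47 to 2.42), at 25.9 CPM in progenitors and 48.4 CPM in other crypt cells. Of 21 tested Notch modulators, 3 were at least 1.5-fold higher and 0 at least 1.5-fold lower, against 6.6% and 8.1% of all genes tested. Jag1, another Notch ligand, was at 6.95 CPM in progenitors and 12.2 CPM in other crypt cells.

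The nearest other set, late secretory cells, held 2 or more UMIs of Atoh1, Dll1 and Dll4 and failed at least 1 gate, and numbered 165 in the antagonist and 248 in the control library. In the control library 57.7% of 7858 tested genes were at least 1.5-fold lower and 4.99% at least 1.5-fold higher in the late cells than in the progenitors (median log2 ratio -0.67), in cells with 5.33% of UMIs from the 5 goblet genes at the median. Against that shift, 29 of 32 Lgr5 stem signature genes were at least 1.5-fold lower in late cells (median -1.46). In the antagonist library, where 1.69% of 7924 genes were at least 1.5-fold lower and 4.43% higher in late cells than in all 65 progenitors, 1 of 24 stem signature genes was lower and 2 higher (median 0.01). Deep cells weigh on both of these antagonist sets. The 35 deep progenitors gave 1667772 of the 1835400 UMIs of the 65. The late cells had an upper quartile of 45425 UMIs, and 54 of the 165 held a tuft gate gene. This comparison was not made within the depth limit. In the control library Sox4 stood at 288 CPM in progenitors and 55.6 CPM in late cells, and Neurog3 at 37.1 CPM and 8.36 CPM. In the other direction, Spdef was at 27.4 CPM in progenitors and 57.4 CPM in late cells, and Creb3l1 at 41.7 CPM and 109 CPM. Bhlha15, a factor of mature secretory cells, had 6 UMIs in progenitors (2.32 CPM) and 63 UMIs in late cells (18.8 CPM). Dll1 was at 264 CPM in progenitors and 113 CPM in late cells, and Atoh1 at 62.6 CPM and 133 CPM. Both sets were chosen on the summed UMIs of these genes and Dll4, so the Dll1 and Atoh1 levels are a description only.

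Some control progenitors carried a branch factor, and they are described apart, a split chosen after the values were seen and given without a test. Neurog3 was found in 29 cells, Spdef in 37 and neither in 240, and 4 cells held both, which is 13.8% of the Neurog3 cells and 10.8% of the Spdef cells. The Neurog3 cells had 202 CPM (151 to 264) of Insm1, an enteroendocrine zinc-finger factor, against 4.22 CPM in Spdef cells and 3.67 CPM in cells with neither. Gadd45g stood at 445 CPM (368 to 534) in Neurog3 cells, 61.1 CPM in Spdef cells and 28.3 CPM in cells with neither. For Sox4 the values were 727 CPM (627 to 837), 171 CPM and 255 CPM in the same order, and for Nkx2-2, an endocrine homeobox factor, 98.9 CPM, 8.43 CPM and 1.57 CPM.

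Among the genes chosen for this split, Klf4, Creb3l1, Agr2 and Spink4 were highest in the Spdef cells. Klf4, a factor of goblet differentiation, was at 103 CPM (76.4 to 137) in Spdef cells, 38.0 CPM in Neurog3 cells and 38.2 CPM in cells with neither, and Creb3l1 at 92.7 CPM (67.4 to 125), 26.6 CPM and 32.5 CPM in the same order. Selenom was higher in both than in the rest, with 1050 CPM in Spdef cells, 890 CPM in Neurog3 cells and 437 CPM in cells with neither. Agr2 and Spink4, which the gate limits to low levels, reached 2433 CPM and 3111 CPM in Spdef cells, 837 CPM and 1663 CPM in Neurog3 cells, and 444 CPM and 529 CPM in cells with neither. Hes1 was at 59.0 CPM in Spdef cells, 53.3 CPM in Neurog3 cells and 100 CPM in cells with neither, and Dll1 was in 36 of 37 Spdef cells and 29 of 29 Neurog3 cells. The Spdef cells were the deeper ones, with a median of 10192 UMIs against 6695 in Neurog3 cells and 6033.5 in cells with neither, and detection of 1 UMI depends on depth.

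**Figure D3:**
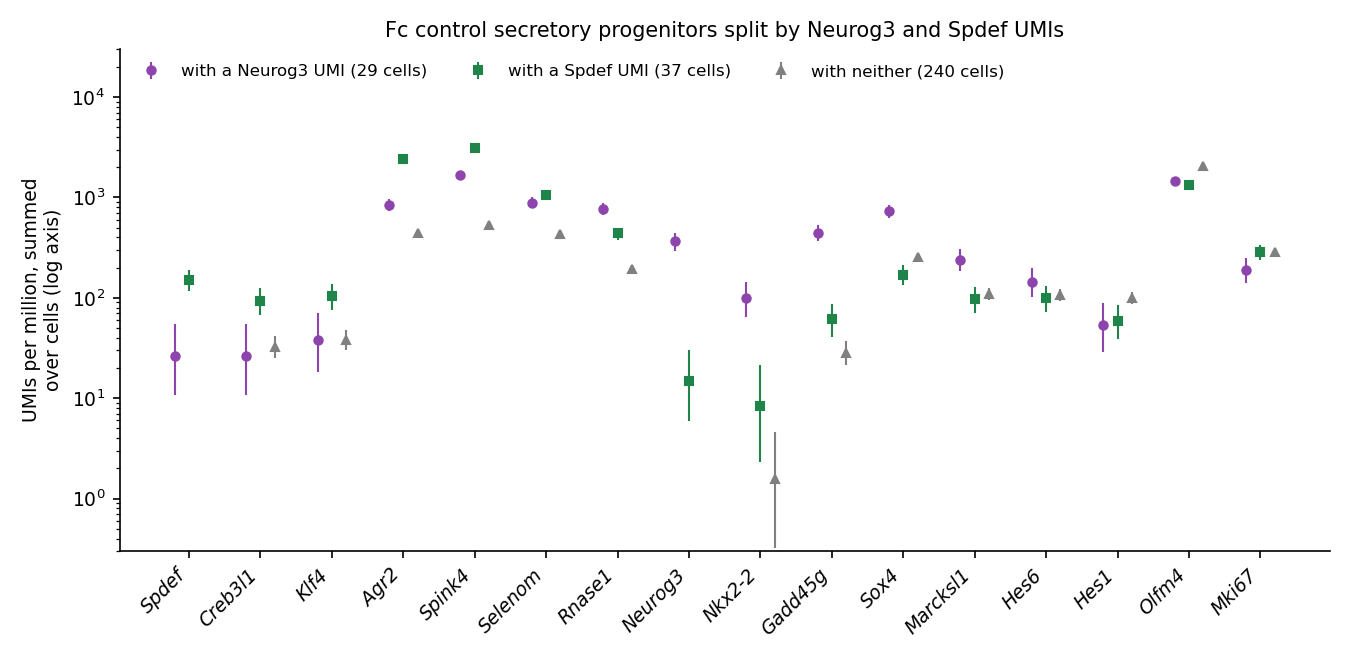
Levels of 16 genes in Fc control secretory progenitors with a Neurog3 UMI, with a Spdef UMI and with neither, in CPM on a log axis with exact Poisson 95% intervals. Sox4, Gadd45g and Nkx2-2 are highest in the Neurog3 cells and Klf4, Creb3l1, Agr2 and Spink4 in the Spdef cells; Spdef and Neurog3 have no point in the cells with neither, which the split defines.

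The control cells were also split into those with an Atoh1 UMI (97) and those without one (205), as a description. Atoh1 is a gene of the rule, so a cell without it needed 2 or more UMIs of Dll1 and Dll4 to be counted. The split therefore also sorts cells by those ligands. The Atoh1 cells were deeper, with a median of 8250 UMIs against 6019 in those without. Of 5927 genes tested, 2.92% were at least 1.5-fold higher and 5.52% at least 1.5-fold lower with Atoh1. Neurog3 was 4.69-fold lower, at 11.2 CPM with Atoh1 and 52.8 CPM without, Insm1 11.5-fold lower, at 3.07 CPM and 35.4 CPM, and Hes1 1.69-fold lower, at 62.4 CPM and 106 CPM. The antimicrobial lectin Reg3g was 3.32-fold higher (3.07 to 3.59), although 1 cell gave 566 of the 1925 UMIs in the Atoh1 cells. S phase genes lay on the higher side, 41 of 42 tested, against 47.6% of all genes tested, and 8 of them were higher by 1.5-fold or more (median log2 ratio 0.32, against -0.01 over all genes tested).

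Between the libraries, the stem cell programme of the secretory progenitors was lower with the antagonist, both over all cells and within the depth limit. Over all of them 8.08% of 7435 tested genes were at least 1.5-fold higher in antagonist cells and 19.3% at least 1.5-fold lower (median log2 ratio -0.15). Of the Lgr5 stem signature, 30 of 31 tested genes were at least 1.5-fold lower and 0 higher (median -1.80). Within the depth limit, where 12.5% of 4936 genes were at least 1.5-fold higher and 26.9% lower (median -0.08), the list had 28 of 29 lower and 0 higher (median -1.98). The same list in other crypt cells, where 6.89% of 11970 genes were higher and 17.7% lower (median -0.16), had 34 of 35 lower and 0 higher (median -1.91). Wnt targets had 9 of 13 at least 1.5-fold lower in antagonist progenitors (median -1.26), 8 of 11 within the depth limit (median -1.61) and 15 of 20 in other crypt cells (median -1.73). These shares over all genes belong beside every list compared between the libraries below.

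Lgr5 was counted 4 times in 65 antagonist progenitors, 2.18 CPM (0.594 to 5.58), and 132 times in 302 control progenitors, 51.0 CPM (42.7 to 60.5), which is 23.4-fold lower (8.92 to 87.1). Within the depth limit it had 0 UMIs in the 30 antagonist cells, a count that allows up to 17.9 CPM, and 55.3 CPM (44.6 to 67.7) in 263 control cells. Olfm4 was at 328 CPM (302 to 355) in antagonist progenitors and 1880 CPM in control progenitors, and within the depth limit at 203 CPM (140 to 283) and 1954 CPM, 9.63-fold lower (6.88 to 13.9). Ascl2, which sustains the stem cell state, was at 6.54 CPM in antagonist and 52.1 CPM in control progenitors, 7.98-fold lower (4.42 to 15.8), and rests on 2 antagonist UMIs within the depth limit. Axin2 was at 26.7 CPM in antagonist progenitors and 152 CPM in control progenitors, 5.69-fold lower (4.22 to 7.82), and 4.80-fold lower (2.18 to 13.2) within the depth limit. Other genes with the lowest ratios by the naming rule were Marcksl1, Rgcc, Tifa, Tecpr1, Gkn3, Lbh, Klhl24, Rnase1 and Trp53i11, from 10.2-fold lower for Marcksl1 to 6.12-fold lower for Trp53i11.

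Sox4 and Hes6, the early secretory factors, were lower both ways. Sox4 is also on the lists of Wnt targets and enteroendocrine factors, so it counts in each of them. Sox4 was at 37.0 CPM (28.8 to 47.0) in antagonist progenitors and 288 CPM (267 to 309) in control progenitors, 7.77-fold lower (6.05 to 10.1). It remained 6.70-fold lower (3.50 to 14.7) within the depth limit, at 53.7 CPM (24.6 to 102) in antagonist cells and 359 CPM (331 to 389) in control cells, and was 3.95-fold lower (3.68 to 4.25) in other crypt cells. Hes6 was 3.89-fold lower (2.88 to 5.33) over all progenitors, and within the depth limit 1.99-fold lower (1.09 to 4.05), at 65.6 CPM in antagonist cells and 131 CPM in control cells. Marcksl1, which was higher in control progenitors than in other crypt cells, was at 29.8 CPM in antagonist and 159 CPM in control cells within the limit, 5.34-fold lower (2.26 to 16.6). Rnase1 was at 107 CPM and 378 CPM there, 3.52-fold lower (2.21 to 5.98), and Gadd45g 3.98-fold lower (1.53 to 14.8).

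For the branch factors the values with and without the deep cells were unlike. The cells within the depth limit were alike in depth but not in goblet content. The 5 goblet gate genes made up 0.792% of UMIs at the median in antagonist cells and 0.175% in control cells. What this did to the branch factors was not tested. Spdef was at 9.81 CPM (5.81 to 15.5) in antagonist and 27.4 CPM (21.4 to 34.6) in control progenitors, 2.80-fold lower (1.65 to 4.99), but within the depth limit at 29.8 CPM (9.69 to 69.6) in antagonist cells and 30.3 CPM (22.6 to 39.8) in control cells. Neurog3 was 7.56-fold lower (3.82 to 17) over all progenitors, and within the depth limit at 47.7 CPM (20.6 to 94.0) in antagonist cells, from 8 UMIs in 4 cells, and 44.6 CPM (35.1 to 55.9) in control cells. Creb3l1 was 1.96-fold lower (1.35 to 2.91) over all progenitors, and within the limit at 77.6 CPM (41.3 to 133) in antagonist cells and 49.3 CPM (39.3 to 61.1) in control cells. Foxa3 was 3.95-fold lower (2.75 to 5.84) over all progenitors and 1.76-fold lower (0.904 to 3.92) within the limit, where its interval spans equality. As a list, secretory factors, Atoh1 among them, had 11 of 13 at least 1.5-fold lower and 0 higher over all progenitors (median log2 ratio -1.45), against 7 lower and 3 higher of 13 within the limit (median -0.74) and 10 lower and 4 higher of 16 in other crypt cells (median -0.89).

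The share of cells with a UMI was read the same way. Spdef was found in 26.2% of antagonist progenitors (16.0 to 38.5) and 12.3% of control progenitors (8.77 to 16.5), an order that goes against the CPM and from which no difference is read. For Spdef within the depth limit the shares were 16.7% of 30 antagonist cells (5.64 to 34.7) and 10.6% of 263 control cells (7.19 to 15). For Neurog3 they were 13.3% (3.76 to 30.7) in antagonist cells and 9.51% (6.25 to 13.7) in control cells within the limit. For Sox4 they were 16.7% (5.64 to 34.7) in antagonist cells and 66.9% (60.9 to 72.6) in control cells within the limit. In enterocytes as background Spdef and Neurog3 were in 0 of 168 antagonist and 0 of 106 control cells, and Sox4 in 1 of 168 antagonist and 6 of 106 control cells.

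**Figure D4:**
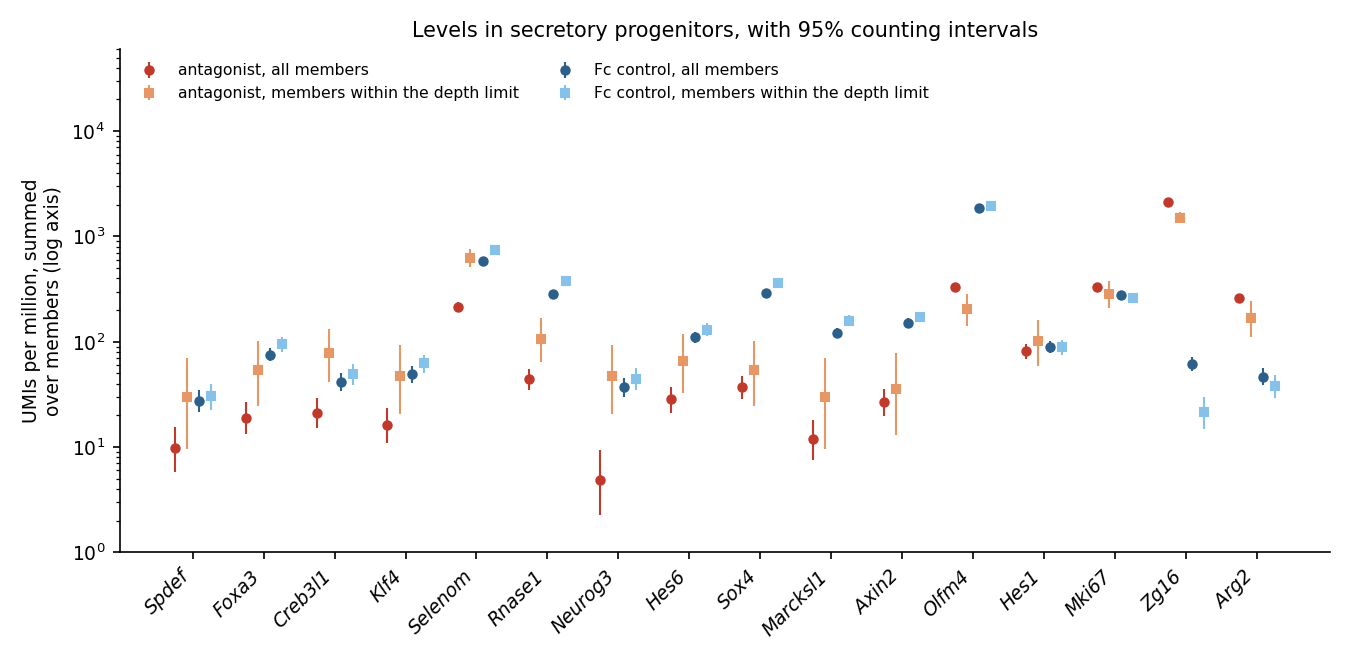
Levels of 16 genes in secretory progenitors, in CPM on a log axis with exact Poisson 95% intervals, antagonist left of Fc control for each gene, over all members and for members within the depth limit. Sox4, Marcksl1, Axin2 and Olfm4 are lower in the antagonist cells in both sets; for Spdef, Creb3l1 and Neurog3 this holds over all members only.

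Of the 3 Notch targets tested, Hes1 differed by less than its counting error, while Lfng and Olfm4 were at least 1.5-fold lower. Lfng and Olfm4 were also lower within the depth limit. Hes1 was at 81.7 CPM in antagonist and 89.2 CPM in control progenitors, 1.09-fold lower (0.885 to 1.35), and within the limit at 101 CPM in antagonist cells and 88.5 CPM in control cells. Notch1 was 2.55-fold lower (1.69 to 3.96) in antagonist progenitors, at 16.3 CPM against 41.7 CPM in control progenitors, and within the limit 1.87-fold lower (0.700 to 7.03) on 4 antagonist UMIs. Notch2 was at 28.9 CPM in antagonist and 25.9 CPM in control progenitors, and within the limit at 29.8 CPM and 24.4 CPM. Lfng was 13.5-fold lower (4.38 to 67.3), on 3 UMIs in antagonist and 57 UMIs in control progenitors, had 1 antagonist and 50 control UMIs within the limit, and was 4.99-fold lower (3.58 to 7.13) in other crypt cells. Of 17 Notch modulators 6 were at least 1.5-fold lower and 0 higher (median log2 ratio -0.45), against 19.3% of all genes lower and 8.08% higher (median -0.15). Within the limit 5 of 11 were lower and 0 higher (median -0.06), against 26.9% of all genes lower and 12.5% higher (median -0.08), so the list median was close to that of all genes.

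Some goblet transcripts and most absorptive ones were higher in the antagonist progenitors. Zg16, a lectin of goblet granules, was at 2118 CPM in antagonist progenitors and 61.4 CPM in control progenitors, 34.5-fold higher (29.4 to 40.7). Zg16 within the depth limit was at 1509 CPM in antagonist cells, with a UMI in 11 of 30, and 21.4 CPM in control cells, with a UMI in 12 of 263. One of those 11 cells gave 147 of the 253 UMIs. Other crypt cells had a like ratio for Zg16, 31.4-fold higher (29.0 to 34.1), at 407 CPM in antagonist and 12.9 CPM in control cells, and enterocytes held a Zg16 UMI in 14.9% of antagonist and 11.3% of control cells. Clca1 was 11.7-fold higher (7.91 to 18), and 16.2-fold (7.75 to 35.3) within the limit. Guca2a, a goblet and enterocyte peptide, was 3.45-fold higher (2.73 to 4.39), and 3.16-fold (1.72 to 5.54) within the limit. Of the goblet genes outside the gate 9 of 19 were at least 1.5-fold higher and 6 lower (median log2 ratio -0.02), and within the limit 6 of 12 higher and 2 lower (median 0.45), so the list held genes of both directions.

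Enterocyte genes had 21 of 29 at least 1.5-fold higher and 2 lower (median 1.09), 10 of 20 higher within the limit (median 0.60) and 29 of 41 higher in other crypt cells (median 0.89). Rbp2 was at 934 CPM in antagonist and 184 CPM in control progenitors, 5.08-fold higher (4.59 to 5.64), and 5.75-fold higher (4.80 to 6.88) within the limit. Arg2, an arginase, was 5.51-fold higher (4.51 to 6.79), and 4.39-fold (2.71 to 6.95) within the limit. Other genes with the highest ratios by the naming rule were Gsta1, Rbp7, Car4, St3gal4, Akr1c19, Chp2, Clps and Cox7a1, from 17.5-fold for Gsta1 to 5.48-fold for Cox7a1. Of these Clps turned within the depth limit, at 17.9 CPM on 3 UMIs in antagonist cells and 24.4 CPM in control cells. The absorptive progenitor list had 12 of 16 at least 1.5-fold higher (median 2.17) and 6 of 8 within the limit (median 0.93).

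Paneth transcripts were higher over all cells and not within the depth limit. Of 18 Paneth genes 15 were at least 1.5-fold higher in antagonist progenitors (median 2.04), whereas within the depth limit 0 of 14 were higher and 2 lower (median -0.01). Lyz1, the Paneth lysozyme that also served as a gate, was at 671 CPM in antagonist and 106 CPM in control progenitors, and within the limit at 125 CPM in antagonist cells and 138 CPM in control cells.

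Cell cycle lists had medians near equality over all progenitors. Of all genes tested, 8.08% were at least 1.5-fold higher and 19.3% lower, and within the limit 12.5% and 26.9%. Of 54 S phase genes 9 were at least 1.5-fold higher and 3 lower in antagonist progenitors (median 0.01), and of 63 G2/M genes 7 higher and 2 lower (median 0.13). Within the limit the S phase list had 7 of 38 higher and 6 lower (median -0.01) and the G2/M list 17 of 48 higher and 3 lower (median 0.39). In other crypt cells, where 6.89% of all genes were higher and 17.7% lower, the G2/M list had 6 of 66 higher and 1 lower (median 0.32). Mki67 was at 332 CPM in antagonist and 279 CPM in control progenitors, 1.19-fold higher (1.07 to 1.33), and within the limit at 286 CPM and 261 CPM, 1.10-fold higher (0.797 to 1.48). Protein folding and secretion genes had 5 of 42 at least 1.5-fold higher and 4 lower (median 0.16), against a median of -0.15 over all genes. Within the limit they had 8 of 37 higher and 1 lower (median 0.40), against -0.08 over all genes.

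**Figure D5:**
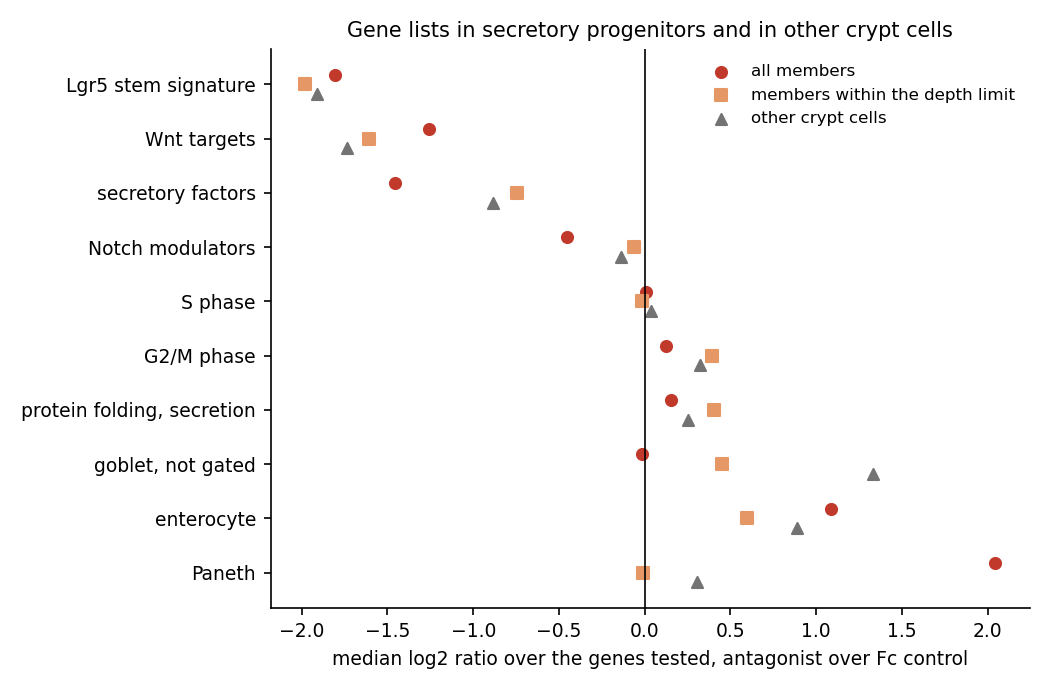
Median log2 ratio, antagonist over Fc control, of 10 gene lists over all secretory progenitors, over those within the depth limit and over other crypt cells. The Lgr5 stem signature lies near -2 in all 3 sets of cells, while the Paneth list is at 2.04 over all progenitors and at -0.01 within the depth limit.

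Within the antagonist library, the 30 progenitors inside the depth limit still differed from other crypt cells in the direction of the label for secretory factors and goblet genes, not for Paneth genes. The limit was set on the progenitors alone, and the 9160 other crypt cells were of all depths. The sum of the 30 progenitors is small (167628 UMIs), and 18.6% of 10740 tested genes were at least 1.5-fold higher and 30% at least 1.5-fold lower. Spdef, with a UMI in 5 of these cells, was at 29.8 CPM in them and 1.61 CPM in other antagonist crypt cells, 18.5-fold higher (5.77 to 45.9). Neurog3 was 32.0-fold higher (13.1 to 68.1) and Selenom 10.7-fold higher (8.73 to 13.1), at 626 CPM and 58.4 CPM. Creb3l1 was 7.08-fold higher (3.73 to 12.3) and Foxa3 6.39-fold higher (2.89 to 12.3). Sox4 was at 53.7 CPM in these cells and 26.9 CPM in other crypt cells, a ratio whose interval spans equality (0.908 to 3.80). Secretory factors had 8 of 12 at least 1.5-fold higher and 2 lower (median log2 ratio 1.38), and goblet genes outside the gate 19 of 22 higher and 1 lower (median 1.98).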

How the data were processed

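Single-cell RNA of GFP+ jejunal cells was measured in 2 libraries, 1 per condition. Raw UMI counts were deposited as 1 sparse matrix per library, made with Cell Ranger 3.1.0 per the file headers and mapped to GRCm38 per the submitters' processing notes. They hold 13085 barcodes with 55810293 UMIs in the antagonist library and 12672 barcodes with 67411637 UMIs in the control library, over 31053 genes. Barcodes with at least 500 genes and at most 20% mitochondrial UMIs were kept, 11019 antagonist and 11263 control cells. No doublet caller was run.

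The rule was applied to each kept cell. Counts were summed over the cells of a set and divided by the set's total. With 1 library per condition no test was made. Levels have exact Poisson, ratios conditional binomial and shares exact Clopper-Pearson 95% intervals, for counting error only. Coordinates are from the GENCODE annotation of GRCm38. Log2 ratios add 0.5 counts. The members, the gene lists and the alternatives were chosen with earlier results of these data known, and the splits by Neurog3, Spdef and Atoh1, with the genes shown in them, after their values were seen. Named genes were the 12 highest and 12 lowest ratios among genes with 50 CPM or more in 1 set, leaving out ribosomal, mitochondrial, immunoglobulin and unnamed genes, and fixed pathway genes. The procedure was tested on simulated data. Python 3.11.15, numpy 2.4.6, scipy 1.17.1, pandas 2.3.3 and matplotlib 3.10.9 were used. The edgeR 4.0.16 package (R 4.3.3) supplied scaling factors for 1 alternative.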

Additional observations from a re-analysis of the deposited data

Results flagged for a closer look

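Between the libraries 5 genes of the secretory programme lay on opposite sides in secretory progenitors and in other crypt cells, by at least 1.5-fold each way and with counting intervals that exclude equality. The difference between those ratios was not itself tested. For Spdef the log2 ratio of antagonist over control was -1.45 in progenitors and 2.19 in other crypt cells. For Creb3l1 it was -0.96 in progenitors and 1.39 in other crypt cells. For Selenom it was -1.44 in progenitors and 1.14 in other crypt cells. For Ern2, a goblet form of the endoplasmic reticulum stress sensor, it was -1.54 in progenitors and 1.33 in other crypt cells. For Insm1 it was -3.62 in progenitors and 0.90 in other crypt cells, on 3 antagonist UMIs in progenitors. Within the depth limit the progenitor value was 0.10 for Spdef, 0.70 for Creb3l1, -0.24 for Selenom and -0.34 for Ern2, and Insm1 had 0 UMIs in the antagonist cells, a count that allows up to 17.9 CPM, and 34.5 CPM in the control cells.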

How the results depend on the processing

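No paired analysis was possible because each condition is 1 library. The share of secretory progenitors was 0.590% in the antagonist and 2.68% in the control library. It was 0.236% and 1.35% with 3 or more UMIs, 4.21% and 9.93% with 1 or more, 0.139% and 1.45% after thinning, 0.840% and 3.25% with at least 1000 genes and at most 10% mitochondrial UMIs, and 0.163% and 1.80% under stricter gates. It was 0.287% in the antagonist library without deep cells, 0.254% there without any tuft or enteroendocrine gate gene, and 2.34% in the control library with Atoh1 and Dll1 alone. The control share was the higher one under all 10 alternatives, each of which kept the exclusion gates.

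Genes at least 1.5-fold higher and lower between the libraries numbered 601 and 1438 of 7435 tested. They were 217 and 250 of 1056 after thinning, which left 7 antagonist and 109 control progenitors. Within the depth limit at 20 or more UMIs they were 1176 and 2479 of 7821. At 200 or more UMIs they were 236 and 381 of 3163, and with TMM factors 936 and 952 of 7435. At 20 or more UMIs the lower ones were 2182 of 9527. Against other crypt cells, the antagonist progenitors had 697 genes higher and 1163 lower of 10801 in the main setting. After thinning, with 7 progenitors left, they had 2228 higher and 5488 lower of 9428. The control progenitors had 762 higher and 936 lower of 11551 in the main setting. After thinning they had 1803 higher and 2061 lower of 10388, and with 3 or more UMIs 1665 lower of 11522.

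The median of the Paneth list, 2.04, moved to 0.082 after thinning, -0.0089 without deep cells and also within the limit at 20 or more UMIs, 0.21 without tuft or enteroendocrine gate genes and 0.84 with equal weight per cell. The G2/M list was at 0.76 after thinning, 0.39 without deep cells, 0.36 within the limit at 20 or more UMIs, 0.063 under stricter gates, 0.30 with TMM factors and 0.28 with equal weight. Notch modulators were at -0.062 without deep cells, 0.075 within the limit at 20 or more UMIs and -0.81 without tuft or enteroendocrine gate genes. Enterocyte genes were at 0.60 without deep cells and 0.48 without those gate genes, S phase genes at -0.23 without them, secretory factors at -0.40 after thinning, and enteroendocrine factors, at -2.90 over all progenitors, at 0.013 within the limit at 20 or more UMIs.

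Some genes turned direction. Without deep cells, and likewise within the limit at 20 or more UMIs, the log2 ratios were -0.81 for Apoa4, 0.70 for Creb3l1, -0.11 for Lyz1, 0.18 for Neurog3 and 0.10 for Spdef. Within the limit at 20 or more UMIs they were also -0.65 for Apoc3 and -0.24 for Clps. Without tuft or enteroendocrine gate genes they were 0.72 for Creb3l1, 0.11 for Ern2, 0.079 for Klf4, 0.40 for Neurog3 and 0.12 for Selenom. With equal weight they were 0.093 for Creb3l1, 0.63 for Neurog3 and 0.35 for Spdef. Under stricter gates Tm4sf4 was at 0.22. Against other crypt cells Neurog3 was at -0.083 in antagonist progenitors with 3 or more UMIs and Zg16 at -1.44 in control progenitors after thinning. The cause was not tested. Depth limits the antagonist side most, where the cells within the depth limit hold 167628 UMIs in all. The alternatives without tuft and enteroendocrine gate genes, without shared barcodes and within the limit at 20 or more UMIs were added after seeing the data.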

Other observations

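Antigen presentation genes of MHC class II, which crypt stem cells can express, were lower in the antagonist cells of the 3 sets compared between the libraries. In secretory progenitors 4 of 5 genes with enough UMIs were at least 1.5-fold lower and 0 higher (median log2 ratio -0.74), against 19.3% of all genes lower. Within the depth limit it was 3 of 4 (median -1.56), against 26.9% of all genes, and in other crypt cells 7 of 7 (median -1.38), against 17.7% of all genes.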
